A study of Ictidomys tridecemlineatus with 15 samples.

Results

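Interbout arousal (IBA), the brief warm interval between bouts of torpor, was compared with early torpor (ET), the first part of the next cold bout, by global run-on sequencing (GRO-seq) of liver nuclei. The comparison used the 3 IBA and 3 ET libraries among the 14 libraries analysed here, and all of the 6324 transcription units in its count table. Every animal was a female 13-lined ground squirrel, a seasonal hibernator, carrying an implanted temperature recorder, and each library came from a different animal. The animals were bought from a breeding colony, housed in the laboratory and, in winter, kept without food in a cold, dark hibernaculum. IBA livers were taken within a few hours of rewarming, from animals with a body temperature near that of summer, and ET livers from animals that had been cold again for a small part of the length of their previous bout. The remaining libraries came from summer active (SA), entrance into torpor (Ent) and late torpor (LT) animals. IBA and ET animals were collected in different hibernation seasons, so season and state cannot be told apart here.

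GRO-seq lets polymerases already engaged on DNA extend their transcripts by a short stretch in isolated nuclei, and so reads transcription under way and not the store of RNA. In the run-on reaction all nuclei are held at the same warm temperature, so the counts report where polymerases stood when the liver was frozen. During torpor the liver of a hibernator cools to near ambient temperature and its metabolism falls to a small part of the warm rate, and in arousal it rewarms, takes up fuel and makes RNA and protein again. In the warm state the hepatocyte secretes plasma proteins, makes glucose and bile acids and clears foreign compounds, under the control of nuclear receptors and hormones such as insulin and glucagon.

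The 6 libraries held from 3734769 to 6740437 counted reads each. Values are CPM, read counts scaled to a common library total with TMM factors, so a level is a share of the counted transcription in its library, and a change in total transcription would not be seen. CPM are not divided by length and are compared between states, not between genes, unless the text says per kb. Spearman correlations of CPM over the 6324 units were 0.962 to 0.977 between IBA libraries, 0.935 to 0.969 between ET libraries and 0.754 to 0.823 between the states. Of 14 hepatocyte markers, 8 had a unit of their own, and their summed level was 12075 to 15407 CPM in the IBA libraries and 3832 to 6606 CPM in the ET libraries. The edgeR test described in the next paragraph called 4 of the 8 lower in ET (Tat, Pck1, Ttr and Hnf4a) and 0 higher, and 2 of them without ET replicate 2 or 3 or IBA replicate 2 or 3. Units of their own were also found for 1 of 14 macrophage markers (Cd14), 3 of 12 endothelial markers (Pecam1, Kdr and Stab1), 1 of 12 stellate cell markers (Rgs5), 2 of 9 cholangiocyte markers (Sox9 among them), and for 0 of 13 lymphocyte and neutrophil and 0 of 9 erythroid markers. Of these 7 non-hepatocyte units 0 passed the test. Their summed levels were 23.0 to 36.0 CPM in IBA and 7.07 to 13.7 CPM in ET for the macrophage marker, 199 to 228 and 124 to 203 CPM for the endothelial markers, 46.6 to 66.8 and 32.9 to 56.1 CPM for the stellate marker, and 121 to 148 and 101 to 125 CPM for the cholangiocyte markers. In whole liver, fewer cells of a type and less transcription per cell cannot be told apart, and the part of cell composition in the results was not tested.

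Many transcription units differed between the states, in both directions. In the quasi-likelihood test of edgeR, with p-values adjusted by Benjamini-Hochberg over the 6324 units, 1446 units passed an adjusted p of 0.001 (22.9% of those tested), 803 higher in ET (12.7%) and 643 lower in ET (10.2%). In all 1446 the ET libraries lay wholly above or wholly below the IBA libraries, against 64.9% of all units tested (31.9% wholly above and 33% wholly below). The rises were more numerous and the falls deeper. The median change of the called units was a 2.33-fold rise or a 2.93-fold fall, 76 units rose and 200 fell by at least 4-fold, and 7 rose and 64 fell by at least 8-fold. Called units thereby took a different share of the counted transcription: those higher in ET held 6.25% ± 0.29 of counts in IBA and 15.5% ± 0.55 in ET (SD, n = 3), and those lower in ET held 14.0% ± 0.96 and 4.80% ± 0.27, which describes the units that the test selected. The 4705 single-gene units match in number the genes that the paper counts as having passed its filter. Units may thus be in the table because they were high in some states only. Of 111 units with under 100 mean counts over the 6 libraries, 20 fell (18.0%) and 2 rose (1.80%). The part of that filter in the number and depth of the falls was not tested. Scaling libraries to uniquely mapped reads, worked out from the percentage that the study lists, in place of the counted reads moved the median log2 difference of all units from -0.03 to 0.23, or to 0.45 with the reads as listed by the study, and made the rises 76.6% or 82.7% of the calls in place of 55.5%, with 0 called units changing sign. The total fell by over 1.5 times to 959 without ET replicate 3, 838 without IBA replicate 1, 862 without IBA replicate 2 and 868 without IBA replicate 3. The units higher in ET fell to 459, 474 and 471 without IBA replicates 1, 2 and 3, and the units lower in ET to between 379 and 421 with any 1 of the 6 libraries left out.

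**Figure D1:**
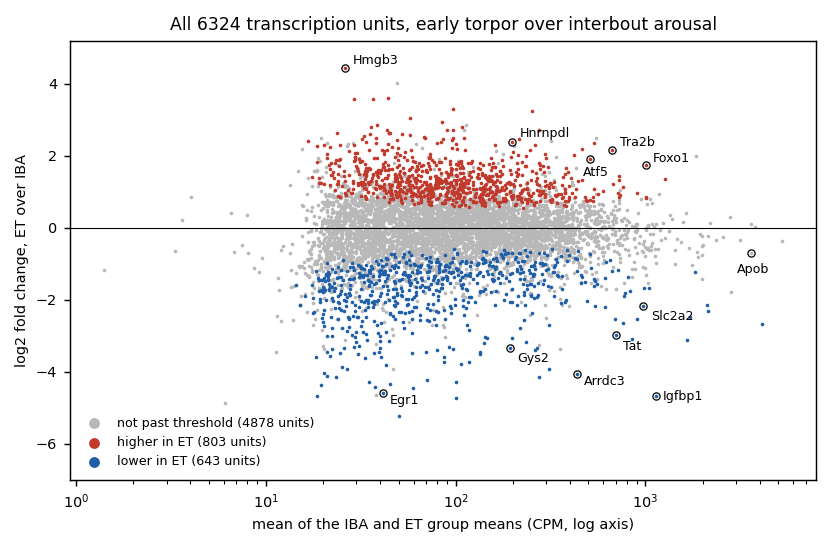
Log2 fold change of each transcription unit from IBA to ET (vertical axis) against the mean of its IBA and ET group means in CPM (horizontal log axis). Red points are the 803 units higher in ET and blue points the 643 units lower in ET at an adjusted p of 0.001, grey points did not pass, and circles mark 12 units named in the text. Falls reach further than rises, from a log2 fold change of -5.23 to 4.45.

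The largest rise past the threshold among units with a gene symbol was that of Hmgb3, which codes for a high mobility group box protein that binds and bends DNA. Its level was 0.853, 1.67 and 3.83 CPM in the IBA libraries, replicates 1 to 3, and 50.1, 52.8 and 48.4 CPM in the ET libraries. It was near 0 in the warm animals and uniform among the torpid ones, with a log2 fold change of 4.45 ± 0.45 (SE, edgeR adjusted p = 1.13e-05). The unit lies on Itri10, from 116729751 to 116736584 on the plus strand of the HiC_Itri_2 assembly, whose chromosomes are written Itri and a number. Hmgb2, a close relative on another chromosome, had 11.9, 7.32 and 7.98 CPM in IBA and 57.7, 58.7 and 70.4 CPM in ET (log2 fold change 2.79 ± 0.35). The merged unit of Hmgb1 and an Hmgb1-like model, in which overlapping genes share 1 count, had 17.3, 18.6 and 17.7 CPM in IBA and 204, 167 and 158 CPM in ET (3.30 ± 0.28). In each of these 3 units the lowest ET library stood several times above the highest IBA library. Because high mobility group genes have near-identical copies and only uniquely aligned reads were counted, reads that fit several copies may be missing from these counts.

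Ypel1, a small zinc-binding nuclear protein, had 5.12, 4.60 and 7.02 CPM in IBA and 81.0, 73.7 and 48.7 CPM in ET. PPP3R1_like, named for the regulatory subunit of the phosphatase calcineurin, had 6.82, 3.34 and 3.67 CPM in IBA and 53.2, 65.0 and 42.5 CPM in ET. Both were an order of magnitude higher in ET, with log2 fold changes of 3.58 ± 0.42 and 3.57 ± 0.31 (edgeR adjusted p = 2.86e-05 and 5.32e-06). Fgfrl1, a receptor of the fibroblast growth factor family that lacks the kinase domain, had 33.0, 62.9 and 48.1 CPM in IBA and 711, 256 and 395 CPM in ET. Csrnp1, a nuclear protein induced by axin, had 16.5, 24.0 and 18.0 CPM in IBA and 244, 113 and 92.4 CPM in ET. For both genes ET replicate 1 was well above the other ET libraries, and the lowest ET library still exceeded every IBA library (log2 fold changes 3.24 ± 0.42 and 2.94 ± 0.37).

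Slc25a4, Slc25a29 and Mterf2 were also among the 12 largest rises. Slc25a4, the ADP/ATP carrier that exports ATP from mitochondria, had 18.8, 26.3 and 25.1 CPM in IBA and 145, 192 and 129.9 CPM in ET (2.73 ± 0.21). Slc25a29, a mitochondrial carrier of basic amino acids, had 26.4, 24.7 and 25.4 CPM in IBA and 200.3, 194 and 114 CPM in ET (2.73 ± 0.22). Mterf2, a regulator of mitochondrial transcription, had 10.8, 8.15 and 9.10 CPM in IBA and 59.3, 75.8 and 68.5 CPM in ET (2.86 ± 0.22). All 3 had separate states, and for Slc25a29 the spread was wide only in ET. Mylip, the ubiquitin ligase that marks the LDL receptor for degradation, had 22.2, 36.2 and 23.0 CPM in IBA and 192, 131 and 243 CPM in ET (2.80 ± 0.44, edgeR adjusted p = 0.000215). The edgeR call of Mylip was lost without IBA replicate 1 or 3, where its adjusted p was at most 0.00175. Kiaa1143, a gene of unknown function, had 9.66, 11.5 and 13.3 CPM in IBA and 58.9, 79.0 and 89.1 CPM in ET (2.71 ± 0.32).

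The largest fall past the threshold among units with a gene symbol was that of Igfbp1, a secreted binding protein for insulin-like growth factors whose transcription in liver is held down by insulin. Its level was 3222, 1477 and 1837 CPM in IBA and 59.6, 35.5 and 160.4 CPM in ET (log2 fold change -4.67 ± 0.82, edgeR adjusted p = 0.000455). Per kb of unit it was the most transcribed single-gene unit in IBA, at 265 CPM per kb, and the 180th most transcribed in ET, at 10.4 CPM per kb. It lies on Itri2, from 101282987 to 101291208 on the plus strand. The edgeR call of Igfbp1 was lost without IBA replicate 1 or 3 or ET replicate 1 or 2, where its adjusted p was at most 0.00329.

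Several genes on a list of immediate early genes, which answer quickly to growth factors and stress, were far lower in ET. The list also holds Arrdc3, Arrdc4 and Txnip, of the arrestin family. Egr1, an early response transcription factor, had 64.5, 58.7 and 114 CPM in IBA and 4.42, 0.982 and 4.15 CPM in ET. Dusp6, a phosphatase that switches off the kinase ERK and is itself induced by it, had 209, 148 and 172 CPM in IBA and 14.3, 11.4 and 25.2 CPM in ET. Arrdc3, an arrestin-like adaptor for membrane receptors, had 1335, 496 and 626 CPM in IBA and 22.2, 52.8 and 71.2 CPM in ET. The IBA libraries varied more than 2-fold for Arrdc3, with replicate 1 the highest, yet the states stayed far apart. Log2 fold changes were -4.59 ± 0.87 for Egr1, -3.37 ± 0.29 for Dusp6 and -4.07 ± 0.66 for Arrdc3 (edgeR adjusted p = 0.000749, 5.07e-06 and 0.000259). Of the 18 listed genes with a unit of their own, 6 fell (33.3%) and 0 rose, against 10.2% and 12.7% of all units. Their median log2 fold change was -1.01 against -0.03 over all units. The other 3 that fell were Zfp36l1, Zfp36l2 and Arrdc4. Zfp36l1 and Zfp36l2, which bind AU-rich elements and speed the decay of mRNAs, went from 396 ± 62.6 to 106 ± 9.19 CPM and from 149 ± 24.8 to 25.8 ± 1.96 CPM (SD, n = 3). Members of the list that did not pass included Jun (-0.09), Myc (-1.97) and Klf9 (0.95). Leaving out libraries one at a time, edgeR lost the call of Egr1 with any 1 of the 6 libraries left out (adjusted p at most 0.00426) and that of Arrdc3 without IBA replicate 1 or ET replicate 1 or 2 (adjusted p at most 0.00169). Arrdc4 was not called with uniquely mapped reads as listed, and Egr1 was not called by limma-voom.

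Further genes with very large falls had varied functions. Hdc, which makes histamine from histidine, had 43.8, 32.6 and 35.9 CPM in IBA and 1.77, 0.982 and 2.55 CPM in ET (-4.36 ± 0.45). Adcy1, an adenylyl cyclase that makes cyclic AMP, had 147, 130.4 and 123 CPM in IBA and 7.95, 4.32 and 8.78 CPM in ET (-4.23 ± 0.34). Bad, a BCL2 family protein that promotes cell death, had 32.7, 43.9 and 38.3 CPM in IBA and 2.36, 1.77 and 2.71 CPM in ET (-4.05 ± 0.42). In each of these 3 every ET library was at a small fraction of every IBA library. Kcnj8, a subunit of ATP-sensitive potassium channels, had 198, 158 and 129 CPM in IBA and 13.8, 11.6 and 10.7 CPM in ET (-3.74 ± 0.50). Zscan2, a zinc finger protein, had 250.1, 169 and 180.1 CPM in IBA and 10.9, 14.5 and 18.0 CPM in ET (-3.78 ± 0.35). PIFO_like, named for a protein of primary cilia, had 98.6, 52.5 and 48.1 CPM in IBA and 4.27, 3.73 and 2.07 CPM in ET (-4.29 ± 0.41). Among units that carry only an annotation number, G8002 on Itri12, from 37218629 to 37227566 on the plus strand fell most, from 98.4 ± 14.1 to 2.56 ± 0.877 CPM (-5.23 ± 0.44), which was the largest fall of the table.

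**Figure D2:**
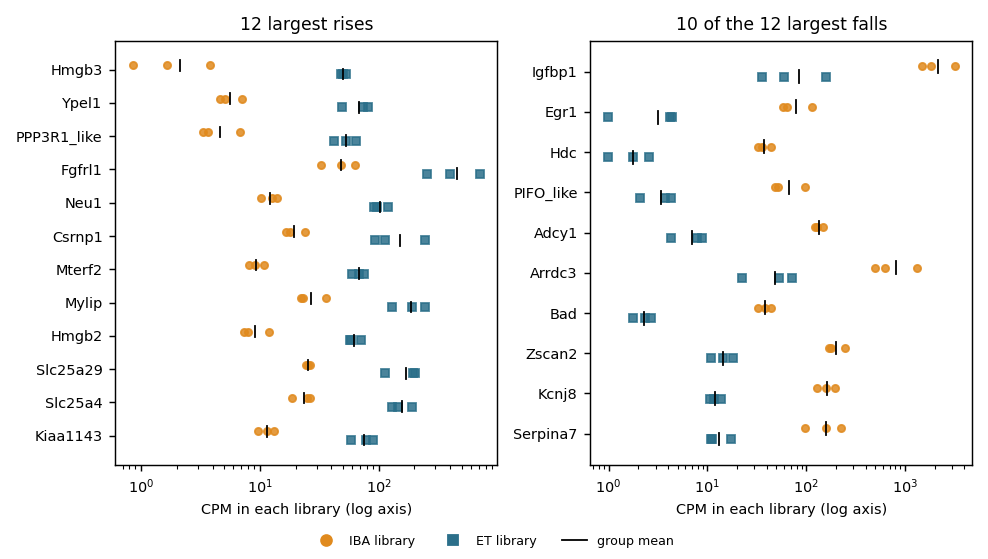
CPM of the 12 named genes that rose most (left) and 10 of the 12 that fell most (right) in each of the 3 IBA libraries (orange circles) and 3 ET libraries (teal squares), on log axes, with vertical black bars at the group means. In each unit the IBA and ET libraries are separate, which the choice of units required, and the largest fold changes are those of Hmgb3 and Igfbp1.

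Many genes of RNA processing were higher in ET. SR proteins bind exons and recruit the splicing machinery, and hnRNP proteins coat new transcripts and often oppose them. Of 17 SR proteins and related regulators with a unit, 10 rose (58.8%) and 0 fell, and of 17 hnRNP and related proteins 8 rose (47.1%) and 0 fell, against 12.7% and 10.2% of all units. Their median log2 fold changes were 0.88 and 0.70, against -0.03 over all units. Tra2b, a splicing activator of the SR-related family, had 245, 229.9 and 256 CPM in IBA and 1260.1, 1081 and 943 CPM in ET (2.17 ± 0.15, edgeR adjusted p = 3.2e-06). Its paralog Tra2a had 93.8, 80.3 and 84.9 CPM in IBA and 284, 258 and 231 CPM in ET (1.58 ± 0.14). Replicates of each state lay close together for both, and no ET library came near an IBA library. Srsf6 and Srsf11, SR proteins proper, went from 95.7 ± 3.61 to 289 ± 43.5 CPM and from 186 ± 6.29 to 439.8 ± 26.6 CPM (SD, n = 3). Hnrnpdl had 64.5, 62.5 and 65.3 CPM in IBA and 314, 399 and 286 CPM in ET (2.38 ± 0.18). Hnrnpa1 had 79.9, 105 and 87.5 CPM in IBA and 486, 350.2 and 377 CPM in ET (2.15 ± 0.17). Hnrnpd and Ewsr1 rose by 1.31 ± 0.13 and 1.18 ± 0.12 on the log2 scale. Values for members that did not pass ran from -0.52 (Hnrnpul2) to 1.01 (Ptbp1). With 1 library left out, 9 to 11 members of the first list and 6 members of the second passed upward and 0 downward.

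Other classes of RNA-binding protein were mixed. Of 14 RBM proteins with a unit of their own, 4 rose (28.6%, Rbm22, Rbm10, Rbm42 and Rbm5) and 2 fell (14.3%, Rbm12 and Rbm41), with a median of 0.31. These shares stand against 12.7% and 10.2% of all units. The cold-inducible Cirbp and Rbm3 were not among these 14. Rbm22, a component of the spliceosome, went from 23.4 ± 3.47 to 64.2 ± 3.41 CPM, and Rbm5, a regulator of exon choice, from 283 ± 16.8 to 509 ± 24.6 CPM (SD, n = 3). Of 14 factors that cleave, polyadenylate or terminate transcripts, 4 rose (28.6%) and 0 fell, with a median of 0.61. They were Ttf2, an ATPase that releases polymerase from DNA (10.5 ± 1.57 to 33.0 ± 2.57 CPM), Cpsf6 and Cpsf7, subunits of cleavage factor I (147 ± 3.31 to 274 ± 31.8 CPM and a log2 fold change of 0.74), and Pcf11, which couples 3′ end cleavage to termination (279.8 ± 14.3 to 472 ± 70.8 CPM). Among 6 splicing kinases 1 rose, Srpk1, an SR protein kinase (0.91 ± 0.16), and 1 fell, Dyrk1a (-0.70 ± 0.12). In edgeR fits without 1 library, the losses were the call of Rbm12 without IBA replicate 1 or 3 or ET replicate 1 (adjusted p at most 0.00125), that of Rbm41 with any 1 of the 6 libraries left out (adjusted p at most 0.00246), that of Pcf11 without IBA replicate 1, 2 or 3 or ET replicate 1 or 2 (adjusted p at most 0.00216), that of Srpk1 without IBA replicate 1, 2 or 3 or ET replicate 2 or 3 (adjusted p at most 0.00277) and that of Dyrk1a without IBA replicate 1 or 3 or ET replicate 1, 2 or 3 (adjusted p at most 0.00238). Rbm12, Rbm41, Cpsf7, Pcf11, Srpk1 and Dyrk1a were not called in a fit of the 6 libraries alone, and Rbm12, Rbm41 and Dyrk1a were not called under either scaling to uniquely mapped reads.

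Stress genes did not move as a block. Of 21 heat shock factors and chaperones 5 rose (23.8%) and 0 fell, with a median of 0.57. Hsp90aa1, the inducible cytosolic HSP90, had 28.1, 26.1 and 32.6 CPM in IBA and 219.6, 144 and 128 CPM in ET (2.50 ± 0.26, edgeR adjusted p = 1.17e-05). Hsf2, a heat shock transcription factor, went from 75.1 ± 6.49 to 171 ± 23.7 CPM, and Hspd1, the mitochondrial chaperonin, from 86.6 ± 8.41 to 191 ± 23.4 CPM (SD, n = 3). Hsf1, the main heat shock regulator, differed by 0.49 on the log2 scale and Hspa1a, an inducible HSP70, by 2.29, and neither passed. Of 23 genes of the unfolded protein and integrated stress responses 3 rose (13%) and 2 fell (8.7%), near the 12.7% and 10.2% of all units, with a median of -0.22 that becomes 0.04 or 0.28 under the 2 scalings to uniquely mapped reads. Atf5, a transcription factor of the integrated stress response, had 142, 232 and 268 CPM in IBA and 666, 898 and 842 CPM in ET (1.90 ± 0.23). Ppp1r15a (GADD34), which directs the phosphatase that reverses eIF2 alpha phosphorylation, had 8.81, 14.8 and 13.3 CPM in IBA and 112, 49.5 and 68.8 CPM in ET (2.63 ± 0.34). Ddit3 (CHOP), a further factor of this response, rose by 1.20 ± 0.18, and was the second most transcribed single-gene unit per kb in ET at 46.7 CPM per kb against 20.3 in IBA. Against these, Xbp1, the transcription factor of the secretory arm, had 467, 399 and 417 CPM in IBA and 88.4, 141 and 119.7 CPM in ET (-1.88 ± 0.34), and Creb3l2, which also serves secretion, fell by 1.29 ± 0.24 on the log2 scale. The heat shock count fell from 5 to 2 without IBA replicate 2. Single omitted libraries cost edgeR the call of Hspd1 without IBA replicate 2 (adjusted p at most 0.00101), that of Xbp1 with any 1 of the 6 libraries left out (adjusted p at most 0.00384) and that of Creb3l2 without IBA replicate 1, 2 or 3 or ET replicate 1 or 2 (adjusted p at most 0.0044). Creb3l2 was not called in a fit of the 6 libraries alone, and Xbp1 and Creb3l2 were not called under either scaling to uniquely mapped reads.

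Of 13 NRF2 and antioxidant genes 2 fell (15.4%, against 10.2% of all units) and 0 rose, with a median of 0.21. Sod1, the cytosolic superoxide dismutase, had 339.6, 313 and 305 CPM in IBA and 95.7, 101 and 161 CPM in ET (-1.42 ± 0.23), and Txnrd2, the mitochondrial thioredoxin reductase, fell by 0.94 ± 0.16 on the log2 scale. Of 14 p53 targets and growth arrest genes 2 rose (14.3%) and 0 fell, with a median of 0.22, and that share of rises is near the 12.7% of all units. Tp53inp2, which takes part in autophagy, had 24.2, 23.6 and 31.1 CPM in IBA and 188, 118 and 133 CPM in ET (2.47 ± 0.24), and Bbc3 (PUMA), which promotes cell death, went from 17.6 ± 3.73 to 49.8 ± 12.8 CPM (SD, n = 3). The other 11 and 12 members did not pass. With 1 library left out, edgeR lost the call of Sod1 without IBA replicate 1 or 2 or ET replicate 1 or 2 (adjusted p at most 0.00167), that of Txnrd2 with any 1 of the 6 libraries left out (adjusted p at most 0.00256) and that of Bbc3 without IBA replicate 1, 2 or 3 or ET replicate 1 or 3 (adjusted p at most 0.00397). Sod1, Txnrd2 and Bbc3 were not called in a fit of the 6 libraries alone, and Sod1 and Txnrd2 were not called under either scaling to uniquely mapped reads.

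The circadian clock list had the highest median of the 30 lists, 1.20. Of its 10 members 3 were higher in ET (30%) and 0 lower, against 12.7% and 10.2% of all units. Cry2, a repressor of the clock, had 95.5, 58.7 and 69.0 CPM in IBA and 306, 243 and 275 CPM in ET (1.89 ± 0.25, edgeR adjusted p = 6.86e-05). Per2, a further repressor, had 68.5, 44.1 and 40.6 CPM in IBA and 107, 119 and 147 CPM in ET (1.29 ± 0.24), and Csnk1d, the kinase that phosphorylates PER proteins, rose by 1.51 ± 0.23. The nuclear receptor Nr1d1 differed by 2.86 ± 0.58 and its relative Nr1d2 by -1.18 ± 0.25, and neither passed the test. Bhlhe40 differed by -1.54 ± 0.34 and did not pass either. The clock count fell from 3 to 1 without IBA replicate 3. Leaving out libraries one at a time, edgeR lost the call of Per2 without IBA replicate 2 or 3 or ET replicate 1, 2 or 3 (adjusted p at most 0.00438) and that of Csnk1d without IBA replicate 1 or 3 (adjusted p at most 0.00143). Per2 and Csnk1d were not called in a fit of the 6 libraries alone.

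Of 26 hepatocyte transcription factors and nuclear receptors 5 fell (19.2%, against 10.2% of all units) and 2 rose (7.69%, against 12.7%), with a median of -0.52. Nr5a2 (LRH-1), a nuclear receptor that drives bile acid genes, had 728, 648 and 625 CPM in IBA and 232, 295 and 253 CPM in ET (-1.36 ± 0.15). Hnf4a, a master regulator of hepatocyte genes, had 813, 894 and 751 CPM in IBA and 502, 346 and 419.9 CPM in ET (-0.95 ± 0.17), and Nr1i2 (PXR), the sensor of foreign compounds, fell by 1.15 ± 0.18. Foxa1 fell by 0.86 ± 0.13 and Gata6 by 0.93 ± 0.17 on the log2 scale, while Thra, a thyroid hormone receptor, rose by 1.20 ± 0.22. With any of the 6 libraries left out, 2 to 4 of the 5 falls passed and at most 1 of the 2 rises. In edgeR fits without 1 library, the losses were the call of Hnf4a without IBA replicate 1, 2 or 3 or ET replicate 2 or 3 (adjusted p at most 0.00265), that of Nr1i2 without ET replicate 1 or 2 (adjusted p at most 0.00119), that of Foxa1 without IBA replicate 1 or 3 (adjusted p at most 0.00118), that of Gata6 without IBA replicate 1, 2 or 3 or ET replicate 1 or 2 (adjusted p at most 0.00318) and that of Thra without IBA replicate 1 or 3 or ET replicate 1, 2 or 3 (adjusted p at most 0.0046). Hnf4a, Foxa1, Gata6 and Thra were not called in a fit of the 6 libraries alone, and Hnf4a, Nr1i2, Foxa1 and Gata6 were not called under either scaling to uniquely mapped reads. Nr5a2 was not called with uniquely mapped reads as listed.

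Of 17 genes of insulin, FoxO and mTOR signalling 2 rose (11.8%) and 2 fell (11.8%), near the 12.7% and 10.2% of all units. Their median of -0.10 becomes 0.17 or 0.45 under the 2 scalings to uniquely mapped reads and 0.097 without IBA replicate 1. Foxo1, a transcription factor held out of the nucleus by insulin signalling, had 446, 459 and 484 CPM in IBA and 1827, 1139 and 1666 CPM in ET (1.74 ± 0.33, edgeR adjusted p = 0.000776). Eif4ebp2, a translation repressor released when mTOR is off, had 208, 199 and 199 CPM in IBA and 643, 428 and 538 CPM in ET (1.41 ± 0.20). Deptor, an inhibitor of mTOR, had 176, 216 and 184 CPM in IBA and 65.8, 61.3 and 70.1 CPM in ET (-1.55 ± 0.23). Foxo1 and Igfbp1, which is a known target of FOXO1, differed in opposite directions. The receptor Insr (-0.52) and the growth factor Igf1 (-1.48) did not pass. Single omitted libraries cost edgeR the call of Foxo1 without IBA replicate 1, 2 or 3 or ET replicate 1 or 3 (adjusted p at most 0.00449) and that of Igfbp1 without IBA replicate 1 or 3 or ET replicate 1 or 2 (adjusted p at most 0.00329). Deptor was not called with uniquely mapped reads as listed.

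Several genes of glucose production and glycogen synthesis were lower in ET, and 2 glycolytic genes were higher. Of 19 genes of gluconeogenesis, glycolysis and glycogen 7 fell (36.8%) and 2 rose (10.5%), against 10.2% and 12.7% of all units, with a median of -0.85. Gys2, the liver glycogen synthase, had 497, 306 and 259 CPM in IBA and 42.6, 28.1 and 34.0 CPM in ET (-3.34 ± 0.32, edgeR adjusted p = 7.72e-06). Slc2a2 (GLUT2), the glucose transporter of the hepatocyte, had 1665, 1443 and 1677 CPM in IBA and 291, 366 and 413 CPM in ET (-2.16 ± 0.25). IBA replicate 1 was the highest for Gys2, and every ET library lay far below the lowest IBA library. G6pc, which releases free glucose, had 1719, 1319 and 1508 CPM in IBA and 162, 158 and 216 CPM in ET (-3.08 ± 0.48). Pck1, which commits carbon to gluconeogenesis, had 1081, 2053 and 1482 CPM in IBA and 398, 104 and 288 CPM in ET (-2.55 ± 0.44). Gys1, Ugp2 and Ppp1r3c, also of glycogen synthesis, fell by 1.90, 1.56 and 2.59 on the log2 scale. Pgk1 and Gapdh, successive enzymes of glycolysis that also work in reverse, rose by 1.74 ± 0.16 and 1.63 ± 0.24. Pygl, the glycogen phosphorylase, had means of 753 ± 148 CPM in IBA and 375 ± 63.7 CPM in ET and did not pass. With 1 library left out, edgeR lost the call of G6pc without ET replicate 1 or 2 (adjusted p at most 0.00146) and that of Pck1 without IBA replicate 2 or 3 or ET replicate 3 (adjusted p at most 0.0023). Pck1 was not called in a fit of the 6 libraries alone, and Ugp2 was not called with uniquely mapped reads as listed.

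Lipid genes split by enzyme. Of 28 genes of fatty acid oxidation and ketogenesis 6 fell (21.4%) and 2 rose (7.14%, Acox3 and Acsl3), against 10.2% and 12.7% of all units. Their median was 0.02 and runs from -0.14 to 0.13 with 1 library left out. Bdh1, which makes the ketone body 3-hydroxybutyrate, had 323, 373 and 339 CPM in IBA and 89.2, 86.0 and 59.5 CPM in ET (-2.14 ± 0.27). Eci2, an isomerase needed for unsaturated chains, had 522, 609 and 615 CPM in IBA and 98.7, 189.5 and 123 CPM in ET (-2.09 ± 0.26). Scp2, of peroxisomal oxidation, and Vnn1, a target of PPAR alpha, fell by 1.42 ± 0.15 and 1.97 ± 0.22 on the log2 scale. Hadha and Hadhb, the subunits of the mitochondrial trifunctional protein, did not pass (0.17 and 0.31). Fgf21, a fasting hormone, differed by -3.23 ± 0.93 without passing (edgeR adjusted p = 0.0107). Of 18 genes of fatty acid and cholesterol synthesis 3 fell (16.7%) and 1 rose (5.56%), with a median of -0.53. Fads1, a desaturase, went from 121 ± 40.4 to 20.4 ± 3.66 CPM (SD, n = 3). Elovl2, which elongates polyunsaturated fatty acids, had 233, 149.9 and 179 CPM in IBA and 27.4, 30.0 and 46.8 CPM in ET (-2.43 ± 0.33), and Thrsp, a regulator of lipogenesis, fell by 2.17 ± 0.40. Fasn, the fatty acid synthase, moved against them, with 83.6, 169.5 and 119 CPM in IBA and 629, 417 and 377 CPM in ET (1.93 ± 0.37, edgeR adjusted p = 0.000882). Leaving out libraries one at a time, edgeR lost the call of Acox3 without IBA replicate 1, 2 or 3 or ET replicate 1 or 3 (adjusted p at most 0.00556), that of Acsl3 with any 1 of the 6 libraries left out (adjusted p at most 0.00279), that of Thrsp without IBA replicate 2 or 3 or ET replicate 1, 2 or 3 (adjusted p at most 0.00393) and that of Fasn with any 1 of the 6 libraries left out (adjusted p at most 0.00536). Acox3 and Fasn were not called in a fit of the 6 libraries alone, and Scp2 and Thrsp were not called with uniquely mapped reads as listed. Acox3 and Thrsp were not called by limma-voom.

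Of 37 genes of amino acid breakdown and the urea cycle 4 fell (10.8%, near the 10.2% of all units) and 2 rose (5.41%, against 12.7%), with a median of -0.40 that becomes -0.14 or 0.06 under the 2 scalings to uniquely mapped reads. Tat, which starts tyrosine breakdown and is induced by glucocorticoids, had 1083, 1520.2 and 1119 CPM in IBA and 193, 100.4 and 176 CPM in ET (-2.98 ± 0.45). Acmsd, of tryptophan breakdown, had 75.6, 58.1 and 75.5 CPM in IBA and 9.72, 12.8 and 11.2 CPM in ET (-2.64 ± 0.35), and Glud1, glutamate dehydrogenase, fell by 1.56 ± 0.19. Aass, which begins lysine breakdown, had 136, 209 and 156 CPM in IBA and 1059, 732 and 489 CPM in ET (2.19 ± 0.33). Aass varied more among the ET libraries than among the IBA libraries, and each ET library was above each IBA library. The urea cycle genes Cps1 (-1.42), Otc (-0.13), Ass1 (2.50) and Asl (-0.76) did not pass. In edgeR fits without 1 library, the losses were the call of Tat without ET replicate 2 (adjusted p at most 0.00101) and that of Aass without IBA replicate 1 or 3 (adjusted p at most 0.00121). Glud1 was not called with uniquely mapped reads as listed.

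Of 14 genes of bile acid synthesis and transport 3 fell (21.4%) and 0 rose, with a median of -0.86. Of 12 genes of drug metabolism 3 fell (25%) and 0 rose, with a median of -0.74, against 10.2% lower and 12.7% higher of all units. Slc10a1 (NTCP), which takes bile acids up from blood, had 402, 314 and 293 CPM in IBA and 85.1, 92.1 and 95.8 CPM in ET (-1.88 ± 0.28). Abcg5, part of the sterol exporter to bile, fell by 2.20 ± 0.28, and Klb, the co-receptor for FGF19 and FGF21, went from 47.1 ± 18.1 to 8.12 ± 3.22 CPM (SD, n = 3). CYP7A1, the rate-limiting enzyme of bile acid synthesis, had 11.4, 10.2 and 13.7 CPM in IBA and 0.884, 0 and 0.16 CPM in ET. Its libraries did not overlap and its levels were low, and it did not pass (-4.88 ± 1.19, edgeR adjusted p = 0.00406). ADH1B, an alcohol dehydrogenase, had 1770.2, 1070.4 and 1109 CPM in IBA and 207, 133 and 289 CPM in ET (-2.65 ± 0.44). CYP2C8 and GSTA2, of drug oxidation and glutathione conjugation, fell by 3.47 ± 0.40 and 2.30 ± 0.39. Both belong to gene families with similar copies, so reads that fit several copies may be missing from their counts. Single omitted libraries cost edgeR the call of Slc10a1 without ET replicate 1 (adjusted p at most 0.00104), that of Klb with any 1 of the 6 libraries left out (adjusted p at most 0.00485), that of ADH1B without IBA replicate 1 or ET replicate 1 or 2 (adjusted p at most 0.00186) and that of GSTA2 without IBA replicate 2 or 3 or ET replicate 1, 2 or 3 (adjusted p at most 0.00259). Klb was not called in a fit of the 6 libraries alone, and Klb was not called under either scaling to uniquely mapped reads. Klb and GSTA2 were not called by limma-voom.

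The plasma protein genes that passed the test were all lower in ET. In the acute phase and carrier list 7 of 15 fell (46.7%) and 0 rose (median -0.84), in complement 3 of 14 fell (21.4%) and 0 rose (median -0.78), and in coagulation 2 of 15 fell (13.3%, near the 10.2% of all units) and 0 rose (median -0.65). Ttr, which carries thyroid hormone and retinol-binding protein, had 1071, 825 and 1126 CPM in IBA and 223, 262 and 176 CPM in ET (-2.20 ± 0.28). Tf, the iron carrier transferrin, had 637, 549.9 and 489 CPM in IBA and 188, 174 and 150.0 CPM in ET (-1.71 ± 0.16). For both, every ET library lay far below every IBA library. Serpina7, thyroxine-binding globulin, had 223, 98.2 and 159 CPM in IBA and 17.2, 11.2 and 10.9 CPM in ET (-3.60 ± 0.63). A2m, the protease inhibitor alpha-2-macroglobulin, had 5767, 1413 and 1771 CPM in IBA and 348, 252 and 432 CPM in ET (-3.12 ± 0.59). Rbp4 and Itih2 were also among the 7. Cfi, a complement inhibitor, Masp1, a protease of the lectin pathway, and Cd59, a brake on the membrane attack complex, fell by 1.69, 1.55 and 1.45 on the log2 scale. Kng1, the kininogen, had 1320.3, 1236 and 1278 CPM in IBA and 348, 385 and 402 CPM in ET (-1.76 ± 0.28), and Plg, plasminogen, fell by 0.90 ± 0.18. The fibrinogen genes Fgb (-1.70, edgeR adjusted p = 0.0109) and Fgg (-1.29, adjusted p = 0.0316) did not pass. Lbp (1.55, adjusted p = 0.0143) and Azgp1 (0.75, adjusted p = 0.0462) were higher in every ET library than in every IBA library and did not pass either. By sign alone, 4 acute phase members were higher in ET and 11 lower, 2 and 12 in complement, and 1 and 14 in coagulation. The acute phase count fell from 7 to 4 without ET replicate 1 or 2 and to 3 without ET replicate 3 or IBA replicate 1. With 1 library left out, edgeR lost the call of Serpina7 without IBA replicate 1 or 3 or ET replicate 1, 2 or 3 (adjusted p at most 0.00304), that of A2m without IBA replicate 1 or 3 or ET replicate 1, 2 or 3 (adjusted p at most 0.00508), that of Rbp4 without IBA replicate 1 or 2 or ET replicate 2 or 3 (adjusted p at most 0.00162), that of Kng1 without IBA replicate 1 or ET replicate 1, 2 or 3 (adjusted p at most 0.00151) and that of Plg without IBA replicate 1, 2 or 3 or ET replicate 2 or 3 (adjusted p at most 0.00597). A2m and Plg were not called in a fit of the 6 libraries alone, and Plg was not called under either scaling to uniquely mapped reads. Rbp4, Itih2, Masp1, Cd59 and Kng1 were not called with uniquely mapped reads as listed, and A2m was not called with uniquely mapped reads from the percentage.

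Of 16 genes of lipoproteins and their assembly 2 fell (12.5%) and 2 rose (12.5%), near the 10.2% and 12.7% of all units, with a median of -0.21 that becomes 0.05 or 0.25 under the 2 scalings to uniquely mapped reads. Apom and Apoh, apolipoproteins of HDL and of phospholipid binding, went from 55.3 ± 0.633 to 11.3 ± 3.78 CPM and from 607 ± 47.8 to 144 ± 35.4 CPM (SD, n = 3). Besides Mylip, the riser was Apool, a protein of mitochondrial cristae in spite of its name (0.93 ± 0.17). Apob, the structural protein of VLDL, had the highest mean CPM of all single-gene units, with 5439, 3857 and 4082 CPM in IBA and 3106, 2282 and 2892 CPM in ET, and did not pass (-0.69 ± 0.21, edgeR adjusted p = 0.0149). The next 4 by mean CPM, Adk, Lonp2, Zbtb20 and Nfia, differed by 0.11, 0.29, -0.25 and -0.34 without passing, and with reads as listed for the scaling Zbtb20 and Nfia come to 0.27 and 0.16. Leaving out libraries one at a time, edgeR lost the call of Apoh without ET replicate 2 or 3 (adjusted p at most 0.00119), that of Apool with any 1 of the 6 libraries left out (adjusted p at most 0.00343) and that of Mylip without IBA replicate 1 or 3 (adjusted p at most 0.00175). Apool was not called in a fit of the 6 libraries alone.

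In the lists of the proteasome, the cytosolic ribosome and translation factors the members that passed were all higher in ET. Of 21 proteasome genes 9 rose (42.9%) and 0 fell, against 12.7% and 10.2% of all units, with a median of 0.74. Psmb3, of the catalytic core, had 22.2, 30.7 and 35.4 CPM in IBA and 131, 108 and 109.8 CPM in ET (1.97 ± 0.21), and Psmc1, an ATPase of the regulatory cap, had 56.0, 55.0 and 51.7 CPM in IBA and 179, 133 and 155 CPM in ET (1.52 ± 0.15). Psmd12 and Psmb2 rose by 1.18 and 1.13 on the log2 scale. The highest IBA library was well below the lowest ET library in each of these 4. Of 27 cytosolic ribosomal proteins 8 rose (29.6%) and 0 fell, with a median of 0.51, and 42 more lie in merged units. Rpl34 had 51.2, 52.3 and 48.1 CPM in IBA and 156, 189 and 149 CPM in ET (1.71 ± 0.17), and Rpl15, Rplp1 and Rpl22 rose by 1.96, 1.74 and 1.12. Ribosomal protein genes have many processed pseudogenes, so reads that fit several copies may be missing from their counts. Of 19 translation factors 6 rose (31.6%) and 0 fell, with a median of 0.36. Eif5a, an elongation factor, had 53.1, 71.3 and 64.3 CPM in IBA and 228, 191 and 180.0 CPM in ET (1.66 ± 0.17), and the initiation factor subunits Eif3f and Eif3m rose by 1.31 and 1.21. Leaving out any 1 of the 6 libraries brought the ribosomal count to 4 or 5 and the translation factor count to 3, and left 7 or 8 proteasome genes, all upward.

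Of 24 nuclear-coded subunits of oxidative phosphorylation 7 rose (29.2%) and 2 fell (8.33%), with a median of 0.64. Atp5a1, a catalytic subunit of ATP synthase, had 79.6, 81.7 and 95.0 CPM in IBA and 208, 239 and 209 CPM in ET (1.35 ± 0.13), and Ndufv3, Ndufb2 and Ndufa10 of complex I rose by 1.66, 1.58 and 1.53. The members that fell were Ndufb9 (-0.92 ± 0.16) and Atp5g2 (-1.42 ± 0.26). Of 12 mitochondrial ribosomal proteins 2 rose (16.7%), Mrps18a and Mrps31, and 1 fell (8.33%), near the 12.7% and 10.2% of all units. The fall was that of Mrpl14, with 52.3, 63.5 and 53.3 CPM in IBA and 5.15, 4.71 and 7.34 CPM in ET (-3.29 ± 0.25, edgeR adjusted p = 3.26e-06), far from the other members of its list. In edgeR fits without 1 library, the losses were the call of Ndufb9 with any 1 of the 6 libraries left out (adjusted p at most 0.00282), that of Atp5g2 without IBA replicate 1, 2 or 3 or ET replicate 1 or 2 (adjusted p at most 0.00344), that of Mrps18a without IBA replicate 2 or 3 or ET replicate 1 or 3 (adjusted p at most 0.00251) and that of Mrps31 with any 1 of the 6 libraries left out (adjusted p at most 0.00433). Ndufb9, Atp5g2, Mrps18a and Mrps31 were not called in a fit of the 6 libraries alone, and Ndufb9 and Atp5g2 were not called under either scaling to uniquely mapped reads.

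Of 25 genes of the vacuolar ATPase and lysosome 6 rose (24%) and 2 fell (8%), against 12.7% and 10.2% of all units, with a median of 0.33. Neu1, the lysosomal sialidase, had 10.2, 12.5 and 14.0 CPM in IBA and 120.2, 96.4 and 91.3 CPM in ET (3.05 ± 0.18, edgeR adjusted p = 3.19e-06). Npc2, which hands cholesterol to NPC1 for export from the lysosome, had 11.4, 8.36 and 10.2 CPM in IBA and 58.6, 81.3 and 43.1 CPM in ET (2.61 ± 0.25). Npc1 itself went the other way, from 121 ± 4.95 to 53.9 ± 11.3 CPM (SD, n = 3), as did the protease Ctsc, from 156 ± 14.5 to 59.9 ± 5.08 CPM. Of 15 genes of the actin cytoskeleton 4 rose (26.7%) and 1 fell (6.67%), with a median of 0.46. Cfl1 and Cfl2, cofilins that sever actin filaments, rose by 1.66 ± 0.25 and 1.89 ± 0.20, and MYL12B, a myosin light chain, by 1.14 ± 0.16 on the log2 scale. The lysosomal rises fell from 6 to 3 without IBA replicate 1, and the actin rises from 4 to 2 without IBA replicate 3. Single omitted libraries cost edgeR the call of Npc1 without IBA replicate 1, 2 or 3 or ET replicate 1 or 3 (adjusted p at most 0.00191) and that of Cfl1 without IBA replicate 1 or 3 (adjusted p at most 0.00119). Npc1 was not called in a fit of the 6 libraries alone, and Npc1 was not called under either scaling to uniquely mapped reads. Ctsc was not called with uniquely mapped reads as listed.

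**Figure D3:**
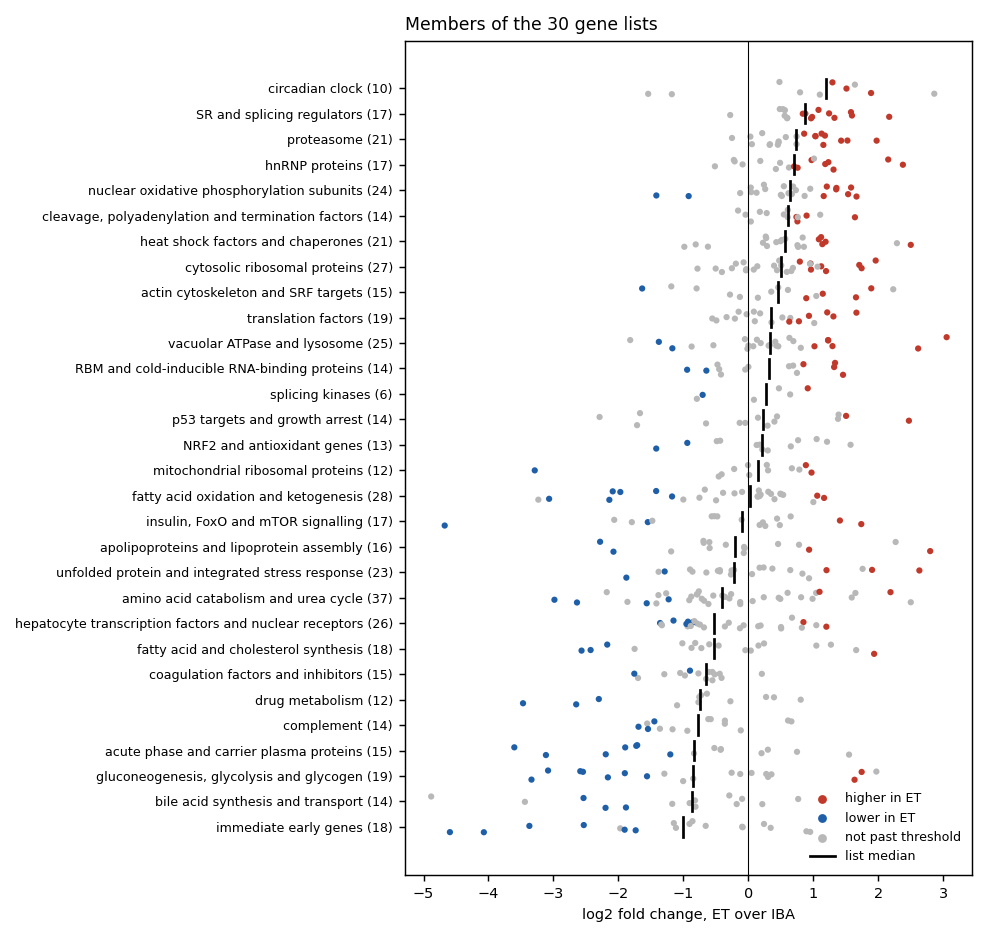
Log2 fold change from IBA to ET (horizontal axis) of each member with a unit of its own in the 30 gene lists (rows, with the number of members), ordered by list median (black bars). Red and blue points passed an adjusted p of 0.001 upward and downward and grey points did not. Medians run from -1.01 in the immediate early list to 1.20 in the circadian clock, with splicing, proteasome and respiration lists on the right and secreted protein and glucose lists on the left.

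Some of the largest changes lay in units with no gene symbol of their own or in merged units, for which no function is given here. ENSSTOG00000033800 (Itri16, from 49770098 to 49786364 on the minus strand) had 16.5, 27.2 and 16.4 CPM in IBA and 115, 128 and 105 CPM in ET (2.53 ± 0.26). G5881 (Itri11, from 33585862 to 33595041 on the plus strand) had 9.95, 8.57 and 10.7 CPM in IBA and 63.3, 55.4 and 44.2 CPM in ET (2.47 ± 0.25). In both the groups were well separated. G10113 (Itri14, from 6038024 to 6050442 on the plus strand) had 185, 214 and 181 CPM in IBA and 2.65, 9.23 and 10.2 CPM in ET (-4.73 ± 0.86). Of the merged units, the one that joins Tssk2, Tssk1b and G17432 had 5.97, 7.32 and 6.71 CPM in IBA and 116, 53.8 and 74.5 CPM in ET (3.60 ± 0.41). The unit G3243:G3238 (Itri1, from 231244037 to 231249629 on the minus strand) had 129.6, 70.2 and 58.0 CPM in IBA and 3.83, 5.11 and 3.83 CPM in ET (-4.33 ± 0.66). The symbol Serpina7 occurs in a unit of its own and in the merged unit G4250:G4257:Serpina7, 9.7 kb away on the same strand of Itri10. That merged unit had 736, 456 and 547 CPM in IBA and 40.8, 44.0 and 30.2 CPM in ET (-3.92 ± 0.30), so both units that carry the name fell. With 1 library left out, edgeR lost the call of G10113 with any 1 of the 6 libraries left out (adjusted p at most 0.00355) and that of G3243:G3238 without ET replicate 1, 2 or 3 (adjusted p at most 0.00137). G3243:G3238 was not called by limma-voom.

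The change varied with the length of the transcribed unit. Among the 4705 single-gene units, those of 10 to 20 kb were most often higher in ET (201 of 912, 22.0%) and 11.1% of them were lower. Of 532 units of 100 to 200 kb, 4 rose (0.75%) and 76 fell (14.3%), and of 271 units of at least 200 kb 2 rose (0.74%) and 20 fell (7.38%), against 12.7% and 10.2% of all units. Median log2 fold changes were -0.94 under 5 kb, -0.03 from 5 to 10 kb, 0.25 from 10 to 20 kb, 0.09 from 20 to 50 kb, -0.10 from 50 to 100 kb, -0.30 from 100 to 200 kb and -0.33 from 200 kb. These signs depend on the scaling. Under scaling to uniquely mapped reads as listed the medians of the 3 longest bins were 0.39, 0.20 and 0.17, and from the listed percentage 0.16, -0.03 and -0.07, against 0.73 and 0.52 at 10 to 20 kb. Among units of 300 to 1000 mean counts over the 6 libraries the medians from 10 kb upward were 0.55, 0.33, -0.06, -0.36 and -0.41. With each library left out in turn the medians of the longest bin stayed between -0.36 and -0.28 and those of the 10 to 20 kb bin between 0.20 and 0.26. The 6 units of at least 100 kb that rose included Foxo1, Mical2, which oxidizes actin, Celf2, an RNA-binding protein, Lnpep, an aminopeptidase, and Usp47, a deubiquitinase. Mical2 had 125, 144 and 137 CPM in IBA and 559, 384 and 391 CPM in ET, and Celf2 had 422, 487 and 524 CPM in IBA and 957, 1030.1 and 1149.7 CPM in ET (log2 fold changes 1.71 ± 0.21 and 1.13 ± 0.21). Leaving out libraries one at a time, edgeR lost the call of Foxo1 without IBA replicate 1, 2 or 3 or ET replicate 1 or 3 (adjusted p at most 0.00449), that of Celf2 with any 1 of the 6 libraries left out (adjusted p at most 0.00428), that of Lnpep without IBA replicate 1, 2 or 3 or ET replicate 2 or 3 (adjusted p at most 0.00225) and that of Usp47 with any 1 of the 6 libraries left out (adjusted p at most 0.00444). The authors had extended many units past the annotated 3′ end from reads of all states, and the part of such reads in these differences was not tested. Lnpep and Usp47 were not called in a fit of the 6 libraries alone.

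**Figure D4:**
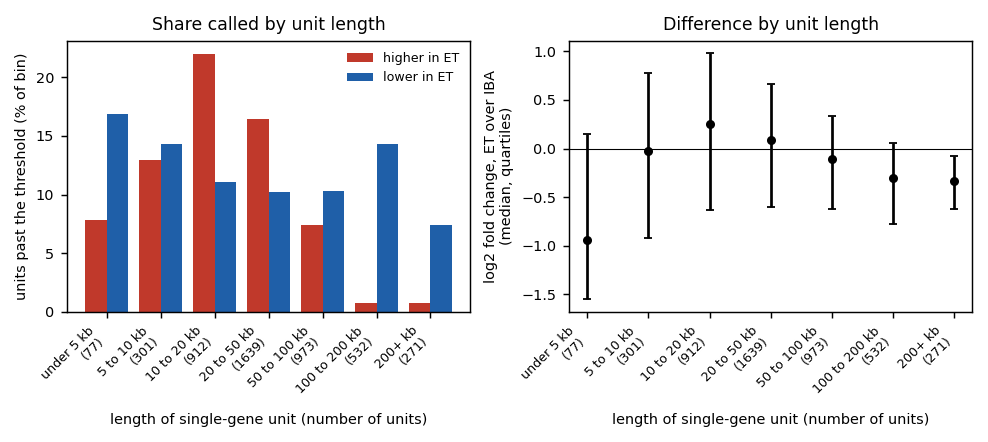
Left, share of single-gene units past an adjusted p of 0.001 that were higher (red) or lower (blue) in ET, by length bin with the number of units in parentheses. Right, median log2 fold change from IBA to ET per bin with the quartiles as bars. The share of rises goes from 22.0% at 10 to 20 kb to under 1% at 100 kb and over.

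Calls also differed by the kind of unit. Of 309 units that carry only an annotation number 14 rose (4.53%) and 81 fell (26.2%), with a median log2 fold change of -0.76, whereas 579 of 4396 units with a gene symbol rose (13.2%) and 439 fell (9.99%), with a median of -0.03. Merged units, which held 35.5% of the counts, had 210 rises and 123 falls among 1619. Of 119 single-gene units with a same-strand neighbour ending within 5 kb upstream, 10 were higher (8.40%) and 15 lower (12.6%) in ET (median -0.07). With an opposite-strand neighbour that near, 81 were higher and 74 lower of 561 (median -0.03). With none, 502 were higher (12.5%) and 431 lower (10.7%) of 4025 (median -0.07). Within 20 kb the same-strand median was 0.05 (47 higher, 44 lower of 440), against -0.08 with none. Units that overlapped after lengthening had been merged and are not among these, so the counts cannot show reads running on from such neighbours.

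A second warm-to-cold difference could be read in animals that the comparison did not use, from SA to LT. That pair also spans the change from feeding summer animals to fasting winter animals, whereas IBA and ET both lie within winter. None of the SA and LT libraries is an IBA or ET library, and the LT animals came from a further hibernation season and the SA animals from separate summers. Of the 1446 units called between IBA and ET, 1427 (98.7%) differed in the same direction from SA to LT, against 76.0% of the units not called. At the threshold of 0.001, 730 (50.5%) also passed between SA and LT in the same direction and 0 in the opposite one, where 15.7% of all units passed. The log2 fold changes of the 2 pairs correlated across the 6324 units with Pearson's r = 0.77 and Spearman's rho = 0.79, a description across units that all come from the same libraries. Mean levels of Hmgb3 were 2.70 CPM in SA and 38.9 CPM in LT, those of Tra2b 263 and 1035 CPM, those of Gys2 472 and 32.3 CPM and those of Dusp6 116 and 20.9 CPM. In each of these 4 the SA mean was closer to the IBA mean than to the ET mean, and the LT mean closer to the ET mean. These 4 were picked, and the share over all called units was not counted. Other called units went the other way for SA. Per2 had means of 144 CPM in SA, 51.0 CPM in IBA and 125 CPM in ET, and Deptor had 98.4, 192 and 65.7 CPM. Cytosolic ribosomal proteins had a list median of 0.51 from IBA to ET and of -0.13 from SA to LT. In Ent, whose animals were cooling, the group mean lay between those of IBA and ET for 789 of the 803 units higher in ET and 619 of the 643 lower in ET. Called units all had separate IBA and ET libraries, which makes an Ent mean between them more likely, and the count was not made over other units. On the log2 scale of the group means the median position of Ent was 44.2% and 44.8% of the way from IBA to ET, with the IBA and ET means fixed by the choice of units.

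**Figure D5:**
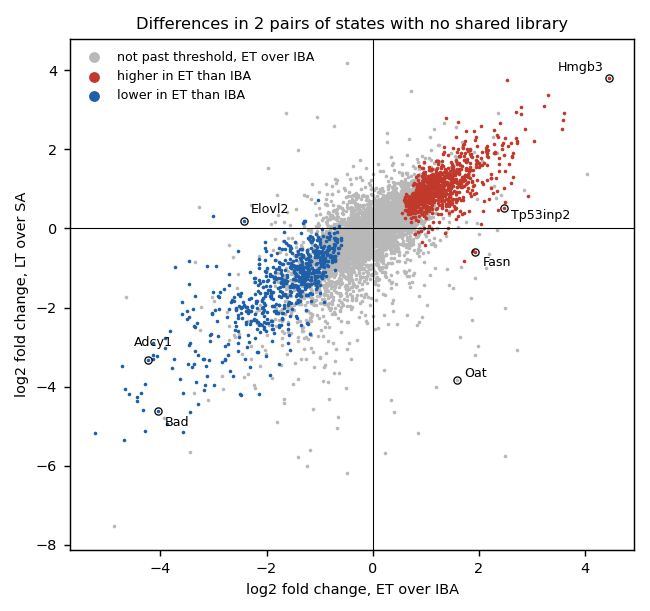
Log2 fold change from SA to LT (vertical axis) against that from IBA to ET (horizontal axis) for the 6324 units, coloured by the call between IBA and ET (red higher in ET, blue lower, grey not past the threshold). Circles mark named units. Called units lie in the quadrants of equal sign in 98.7% of cases, and Oat, Elovl2 and Fasn lie outside them.

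No unit passed the threshold in a test of whether the 2 differences differed. The contrast of ET minus IBA against LT minus SA gave 0 units at an adjusted p of 0.001 in edgeR, with 108 at 0.05, 1092 at an unadjusted p of 0.05, 93 by DESeq2 at 0.001 and 0 by limma-voom. Oat, ornithine aminotransferase of amino acid breakdown, was among the units with the smallest p-values. It had 8.53, 11.9 and 7.50 CPM in IBA and 53.01, 16.9 and 13.7 CPM in ET, where replicate 1 stood apart, against means of 194 CPM in SA and 13.6 CPM in LT. SA was the highest of these 4 states, and Ent had 9.46 CPM. For the contrast 1 unit passed without ET replicate 1 and 1 without LT replicate 1.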

How the data were processed

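GRO-seq libraries were made from nuclei of frozen liver. The authors trimmed reads with cutadapt (minimum length 32), aligned them to the HiC_Itri_2 assembly with BWA and used featureCounts to give the deposited read counts per unit from uniquely aligned reads. Units were annotated genes lengthened at the 3′ end where fstitch, run on the reads of all states, called transcription further on, with overlapping genes merged and the first 500 nt left out. LT replicate 2 was not analysed here.

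The counts were tested with edgeR 4.0.16 (R 4.3.3), TMM factors and the quasi-likelihood F test, and no count filter was added to that of the authors. The fit had 1 coefficient for each of 5 states over 14 libraries, with Benjamini-Hochberg adjustment over 6324 units and a threshold of 0.001. CPM used the same factors. The SE given with a log2 fold change is the absolute log2 fold change divided by the square root of the F statistic, and is not reported by edgeR itself. Alternatives used DESeq2 1.42.0, limma-voom 3.58.1, other scalings, thresholds and filters, single-gene units, the 6 libraries alone, a replicate block and omission of each library. The scripts were tested on simulated data with 200 changed units. Tables and figures used Python 3.11.15, pandas 2.3.3, numpy 2.4.6 and matplotlib 3.10.9. Replicates are different animals, and precision is limited by 3 per state and by the counts per unit.

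The members and gene lists were chosen with earlier results of these data known. Named genes were, among single-gene units past the threshold with separate libraries, 12 that rose most and 12 that fell most (names that are only numbers left out, and 2 of those named each way), the 2 merged units each way, up to 4 members with the smallest p of each list, the 5 single-gene units with the highest mean CPM and the 3 with the smallest p for the difference between ET minus IBA and LT minus SA. Other members of lists and families were named after their values were seen. A few units that these choices name are not reported here. Of 4396 symbols 3985 matched a RefSeq name in mIctTri1.hap1, which gave no coordinates or sequence here.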

Additional observations from a re-analysis of the deposited data

Results flagged for a closer look

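Among the named genes reported here, 8 units had a change from IBA to ET that differed from the change from SA to LT at an adjusted p of 0.05 in edgeR, and 0 at 0.001. The difference of the log2 fold changes was 1.95 for Tp53inp2, 2.53 for Fasn, 5.43 for Oat and 3.53 for LOC106145023, where ET minus IBA was the more positive. It was -2.63 for Elovl2, -2.65 for CYP2C8, -1.20 for Tf and -3.34 for ENSSTOG00000034399, where ET minus IBA was the more negative. Of these, Oat, LOC106145023 and ENSSTOG00000034399 were named because their p for this difference was among the smallest.

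Elovl2 had group means of 49.9 CPM in SA, 187 ± 42.4 CPM in IBA, 34.7 ± 10.5 CPM in ET and 57.5 CPM in LT. Fasn had 704 CPM in SA, 124 ± 43.2 CPM in IBA, 474 ± 136 CPM in ET and 466 CPM in LT. Tf had 312 CPM in SA, 559 ± 74.8 CPM in IBA, 171 ± 19.2 CPM in ET and 219 CPM in LT. The SA and IBA means of these genes were unequal, a difference that was not tested. Season of collection and the smaller LT group of 2 libraries move with this contrast, and their part in it was not tested.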

How the results depend on the processing

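The number of units called between IBA and ET was 1446 and became 2324 with DESeq2 (1250 higher and 1074 lower in ET), which held all 1446, and 3488 at an adjusted p of 0.05 (1755 higher, 1733 lower), where 92.7% changed the same way from SA to LT. Scaling to uniquely mapped reads from the listed percentage gave 1275 higher and 390 lower (76.6% higher), and as listed 211 lower (82.7% higher). The difference between ET minus IBA and LT minus SA was called for 0 units, for 93 with DESeq2, 108 at an adjusted p of 0.05 and 2 with reads as listed. Leaving out 1 library gave 838 to 1046 calls, 459 to 625 higher and 379 to 421 lower, and 0 to 1 for the difference. Totals of 1068 with the 6 libraries alone, 1388 with limma-voom, 1430 with upper-quartile factors, 1448 with at least 10 counts, 1146 over single-gene units and 1114 with at least a 2-fold change were within 1.5 times. A replicate block gave 1176 calls (638 higher, 538 lower). Same-numbered IBA and ET libraries correlated in their deviations from the state means at -0.25, -0.26 and 0.09. With 3 libraries per state such deviations are tied to each other, so these values cannot show whether same-numbered libraries share a block. Under scaling to uniquely mapped reads from the percentage and as listed, signs reversed for Zbtb20 (0.014 and 0.27) and for the medians of the unfolded protein (0.04 and 0.28), insulin (0.17 and 0.45) and lipoprotein lists (0.05 and 0.25) and of units of 5 to 10 kb (0.24 and 0.44) and 50 to 100 kb (0.16 and 0.39). As listed only, they reversed for Nfia (0.16), the amino acid list (0.062), the stellate marker (0.041) and units of 100 to 200 kb (0.20) and from 200 kb (0.17). The median of fatty acid oxidation genes, 0.02, was -0.016 with limma-voom, and -0.14, -0.074 and -0.12 without ET replicate 2, IBA replicate 1 and IBA replicate 3, and that of the insulin list was 0.097 without IBA replicate 1. Neither Zbtb20 nor Nfia was called. Of 188 named or listed units past the threshold, 41 were lost with the 6 libraries alone, 33 with reads as listed, 18 with the percentage, 7 with limma-voom, 27 with the replicate block, 1 with upper-quartile factors and 0 with DESeq2, and 0 changed sign. Of the same 188, 111 passed with any library left out, 77 were lost with at least 1 left out, at an adjusted p of at most 0.00597, and 0 changed sign. The cause of these changes was not tested, and losses with a library left out come with fewer samples.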

Other observations

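Some gene families were examined after their values were seen, and their counts stand beside the 12.7% of all units called higher and the 10.2% called lower. Of 11 CYP2C units, drug-metabolizing cytochromes P450 in 1 cluster on Itri1, 5 were lower (45.5%) and 0 higher in ET (median log2 fold change -3.26). Reads that fit several of their similar copies may be missing from the counts. CYP2C18_like_gene16228 had 496, 352 and 304 CPM in IBA and 40.3, 64.8 and 60.5 CPM in ET (-2.80 ± 0.25). CYP2C19 in the same cluster ranged from 5.40 to 127 CPM among the IBA libraries and from 10.5 to 45.2 CPM among the ET libraries. Of 7 units of potassium channels and their subunits, 4 fell (57.1%) and 0 rose. Kcnn2, a calcium-activated channel, had 710.5, 501 and 410.0 CPM in IBA and 62.9, 89.6 and 96.1 CPM in ET (-2.71 ± 0.41), and Kcnab1, a channel subunit, had 77.9, 78.0 and 60.8 CPM in IBA and 8.69, 6.09 and 9.58 CPM in ET (-3.14 ± 0.23). The edgeR call of Kcnn2 was lost without ET replicate 1 or 2, where its adjusted p was at most 0.00128.

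Of 24 units of the SLC25 family of mitochondrial carriers 7 rose (29.2%) and 1 fell (4.17%), with a median of 0.59. Slc25a5, an ADP/ATP carrier like Slc25a4, had 7.67, 12.5 and 13.4 CPM in IBA and 60.8, 71.3 and 61.3 CPM in ET (2.50 ± 0.30). Slc25a38, a glycine carrier, had 7.39, 6.27 and 6.86 CPM in IBA and 32.5, 35.0 and 33.2 CPM in ET (2.29 ± 0.23). Slc25a27, named an uncoupling protein, fell from 90.4 ± 30.3 to 17.3 ± 2.31 CPM (SD, n = 3). The edgeR call of Slc25a27 was lost without ET replicate 1 or 2, where its adjusted p was at most 0.00128. Of 5 units that hold a gene of the HMGB or HMGN families 4 rose and 0 fell. The fourth riser, beside the Hmgb units, was the merged unit of G14865 and Hmgn1, a nucleosome-binding protein, with 37.5, 44.7 and 41.2 CPM in IBA and 198, 186 and 165 CPM in ET. Of 128 units named ZNF or ZFP, zinc finger genes, 16 rose (12.5%) and 11 fell (8.59%), with a median of 0.03, so that this family stood near all units.

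The ranking of genes by transcription per kb changed between the states. Of the 100 most transcribed single-gene units per kb in IBA and the 100 in ET, 37 were shared, which is 37% of each list. Of the IBA list 42% were called lower in ET and 2% higher, and of the ET list 32% higher and 7% lower, against 10.2% lower and 12.7% higher of all units. A list of units high in 1 state favours units higher in that state. Selenop, which carries selenium in plasma, ranked 2 in IBA at 215 CPM per kb and 5 in ET at 43.4, and Pck1 ranked 3 at 198 and 9 at 33.8. Apob ranked 4 in IBA at 81.5 CPM per kb and 1 in ET at 50.4. Atf5 ranked 146 in IBA at 11.8 CPM per kb and 4 in ET at 44.2. Pck1 was not called in a fit of the 6 libraries alone.

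Neighbouring genes moved together in some places and apart in others. On Itri2, Adcy1 and Igfbp1 lie 17.2 kb apart on the same strand and fell by 4.23 and 4.67 on the log2 scale. On Itri14, Hnrnpdl and Hnrnpd lie 19.0 kb apart and rose by 2.38 and 1.31, while G10113, 66.8 kb from Hnrnpd on the same strand, changed by -4.73. Over single-gene units with a neighbour within 50 kb, the nearest unit was called higher for 14.8% of 542 units that rose and 10.7% of 440 that fell, and called lower for 8.86% and 19.3%. For 3223 units that were not called these shares were 12.4% and 10.4%, and neighbours are not independent of each other.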
